A study of Mus musculus with 6 samples.

Results

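The MHC class II genes of the mouse were followed in spinal cord RNA from mice with and without an astrocytic deletion of Sox2. The set holds 7 of the 35275 genes of the deposited tables, chosen by name: Cd74, H2-Aa, H2-Ab1, H2-Eb1, H2-DMa, H2-DMb1 and Ciita. Each was found through its Ensembl identifier, and all 7 had enough counts to be tested.

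Whole spinal cord was taken from 3 Sox2 cKO and 3 Ctrl mice on a C57BL/6 background, and poly(A) RNA of each was sequenced as a single library. In the labels, Sox2 cKO mice are mGfap-Cre:Sox2fl/fl and Ctrl mice are mGfap-Cre:Sox2+/+, while the text on the design lets controls carry either mGfap-Cre or Sox2fl/fl alone. mGfap-Cre expresses Cre recombinase from the mouse Gfap promoter, so the floxed Sox2 gene is removed in astrocytes and in any other cell that used this promoter, from development onwards. The age is P90 in one label and P80 in another, and RNA with an integrity number above 6.8 was used according to the labels. For the sequenced mice the paper names Sox2fl/fl littermates as Ctrl and gives the same numbers of females and males in both groups. Which library came from which sex was not assigned. The columns of the tables carry mouse numbers, so libraries are named here by the last digit of that number: 2, 4 and 6 for Ctrl and 1, 3 and 5 for Sox2 cKO.

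MHC class II molecules carry peptides made in endosomes to the cell surface, where CD4+ T cells read them. An alpha and a beta chain pair in the endoplasmic reticulum, the invariant chain CD74 fills the groove and guides the pair to endosomes, proteases trim it, and the H2-DM pair exchanges the remaining fragment for a peptide. CIITA is the coactivator that switches these genes on, acting through factors bound to the X and Y boxes of their promoters. In the healthy spinal cord, class II protein is known mainly from macrophages of the meninges and vessels, dendritic cells and B cells, and little is present on resting microglia or astrocytes.

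The promoters of H2-Aa and H2-Eb1 are shown because these are an alpha and a beta chain gene with the same full Y box, the CCAAT element read by NF-Y, and because one of them passed the test given further on while the other did not. Of the 7 genes, 4 had a promoter in the RefSeq set (GRCm38.p6), namely H2-Aa, H2-Eb1, H2-DMa and H2-DMb1. The 150 bases before the start site are printed 5′ to 3′ on the strand of the gene, with capitals on the Y box core ATTGG (or CCAAT on the other strand) and the X box core ACNGATG. H2-Aa lies on the minus strand, with the stretch at chr17:34287824-34287973, and H2-Eb1 on the plus strand, with the stretch at chr17:34305717-34305866.
H2-Aa: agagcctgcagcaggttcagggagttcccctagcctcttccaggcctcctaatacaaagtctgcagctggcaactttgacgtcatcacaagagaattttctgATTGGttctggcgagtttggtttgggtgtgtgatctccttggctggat
H2-Eb1: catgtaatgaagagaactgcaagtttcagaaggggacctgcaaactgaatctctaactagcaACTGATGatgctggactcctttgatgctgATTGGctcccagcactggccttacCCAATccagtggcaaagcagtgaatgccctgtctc

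Both strands were searched over 250 bases before to 50 bases after the start. The Y box core began 48 bases before the start of H2-Aa, 59 bases before that of H2-Eb1 and 61 bases before that of H2-DMb1. A core of this kind was present in 37.4% of all 32851 promoters of the same length. The longer Y box CTGATTGG, which contains the core, was found in H2-Aa and H2-Eb1 and in 4.1% of all promoters. An X box core began 88 bases before the start of H2-Eb1 and 91 bases before that of H2-DMb1, which set it 29 and 30 bases ahead of the Y box core. In H2-Aa these exact X box letters occurred on the other strand alone, 232 bases before the start. X boxes with other letters were not searched for, so one nearer the Y box of H2-Aa could have been missed. Both cores together were present in 3.65% of all promoters. The H2-DMa window at its first listed start held none of these letters, and its second window held a Y box core 198 bases before the start. The start that RefSeq gives for H2-DMb1 lies 119 bases from the nearest GENCODE start of that gene.

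The libraries held 21507911 to 28392184 counts and the groups overlapped in depth. Sox2 itself, the deleted gene, was present at 19.9, 14.8 and 29.5 CPM (counts scaled to library size, with TMM normalization) in Ctrl and at 3.16, 2.69 and 2.98 CPM in Sox2 cKO, a log2 fold change of -2.86 (SE 0.24, adjusted p = 0.00096 by edgeR's quasi-likelihood test with Benjamini-Hochberg adjustment). All 11 markers of spinal cord passed the filter, Hoxc8 included, and the forebrain genes Emx1 and Tbr1 had 5 and 20 counts over all 6 libraries, while Neurod6, also on the forebrain list, had 514 counts (2.56 to 4.53 CPM).

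The class II genes were low in this tissue, and their levels per length spanned a wide range. On the FPKM scale, which divides counts by gene length, the invariant chain gene Cd74 was highest with a mean of 6.3 FPKM (range 4.32 to 8.18, n = 6 libraries), above H2-Eb1 in all 6 libraries. That level exceeded the mean FPKM of 51.4% of tested genes. The 3 chain genes of the classical molecules followed with H2-DMa among them: H2-Eb1 at 4.12 FPKM (2.07 to 5.81), H2-Aa at 3.58 FPKM (2.33 to 4.49), H2-DMa at 3.21 FPKM (2.4 to 4.34) and H2-Ab1 at 2.85 FPKM (1.69 to 3.69). The ranges of these neighbours overlapped, and H2-Eb1 was above H2-Aa in 4 of 6 libraries while H2-Aa was above H2-DMa in 3 of 6. H2-DMb1 was lower at 1.5 FPKM (0.907 to 2.33). Ciita was last at 0.312 FPKM (0.0796 to 0.58), a level above that of 5.61% of tested genes, and its range was the one that did not overlap with that of its neighbour H2-DMb1.

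The comparison of Sox2 cKO with Ctrl asks what the loss of SOX2 in astrocytes does to RNA of the whole cord. H2-Eb1 was the one member that rose, by 1.7 fold. The other 5 structural and loading genes, Cd74, H2-Aa, H2-Ab1, H2-DMa and H2-DMb1, had positive log2 fold changes of 0.26 to 0.71 that did not pass the test, and the value of the coactivator gene Ciita was negative without passing it. So 1 of the 7 genes was called higher, against 12.2% of the 16137 genes tested, and 0 were called lower, against 12.4%, by edgeR at an adjusted p below 0.05. At an unadjusted p below 0.05 there were 5 members, 4 higher and 1 lower, with edgeR and also with DESeq2, which called 1 member after adjustment as well. The libraries do not overlap in 3 of the 7 genes, all higher in Sox2 cKO, where 22.6% of tested genes showed the same. In RNA of a whole tissue, a change in the number of cells that express a gene and a change in RNA per cell cannot be told apart. The count of called members depended on single mice: it was 4 without Ctrl library 2 and 0 without any one of the other 5 libraries. The calls over all genes moved in the same way, from 24.6% in either direction with all libraries to 36.9% without Ctrl library 2 and to between 0.0485% and 16.3% without one of the others.

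**Figure D1:**
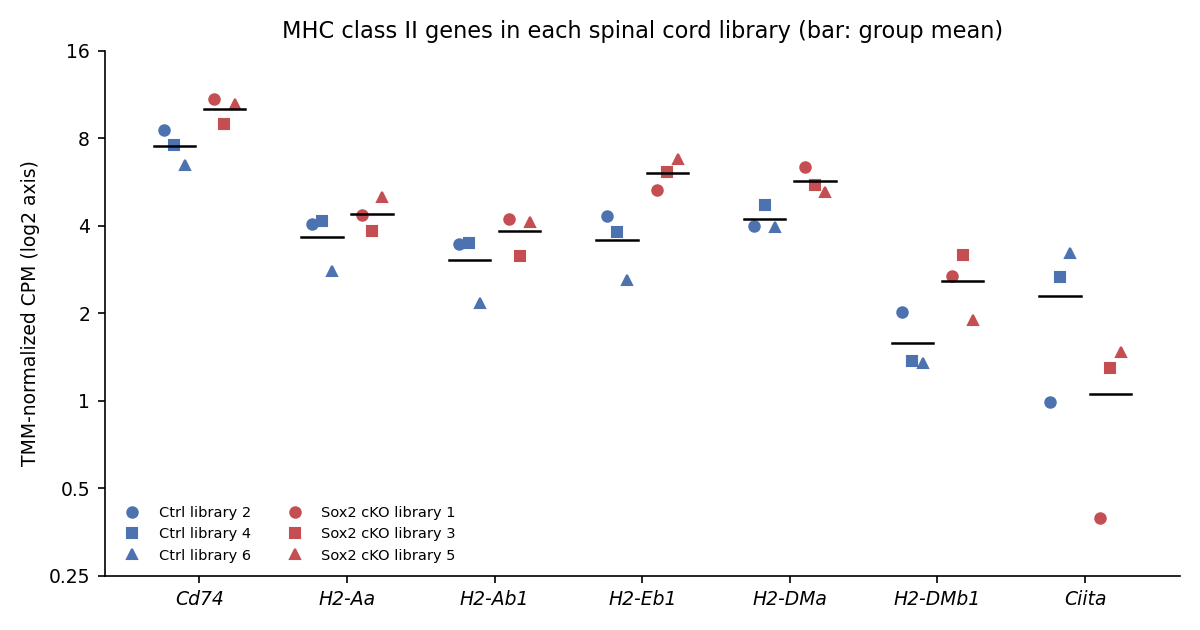
CPM of the 7 class II genes on a log2 axis, with 1 point for each library (blue, Ctrl; red, Sox2 cKO) and a bar at the mean of the group. H2-Eb1, Cd74 and H2-DMa have every Sox2 cKO point above every Ctrl point, and Ciita is the one gene with a lower Sox2 cKO mean.

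H2-Eb1 (ENSMUSG00000060586, GRCm38 chr17:34305867-34316674, plus strand) encodes the beta chain of the H2-E molecule. It was present at 4.31, 3.82 and 2.61 CPM in Ctrl libraries 2, 4 and 6 and at 5.31, 6.14 and 6.80 CPM in Sox2 cKO libraries 1, 3 and 5. Every Sox2 cKO library was above every Ctrl library, and the means were 3.58 ± 0.876 and 6.08 ± 0.744 CPM (SD, n = 3 each). The log2 fold change was 0.76 (SE 0.20, adjusted p = 0.025 by edgeR). An exact two-sided permutation test over the libraries gave p = 0.1, the smallest value that 3 against 3 allow. The counts behind these values were 54 to 180 per library. H2-Eb1 overlaps Gm20513, an antisense gene on the other strand, and since the strand setting of the counting is not given in the sources used here, reads of both genes cannot be told apart.

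The partner that an H2-Eb1 chain needs is an H2-E alpha chain, whose gene is a pseudogene in C57BL/6 mice. H2-Ea-ps had 3 counts in all, each of them in Sox2 cKO library 3. H2-Eb2, a second beta chain gene next to it, had 22 counts over the 6 libraries and was not tested. The rise was therefore measured in a chain gene without a counted alpha partner.

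H2-Aa and H2-Ab1 encode the alpha and beta chains of H2-A, the class II molecule that C57BL/6 mice display. H2-Aa (ENSMUSG00000036594, chr17:34282744-34287823, minus strand) was present at 4.04, 4.16 and 2.80 CPM in Ctrl and at 4.35, 3.85 and 5.02 CPM in Sox2 cKO. H2-Ab1 (ENSMUSG00000073421, chr17:34257689-34269419, plus strand) was present at 3.45, 3.49 and 2.17 CPM in Ctrl and at 4.22, 3.14 and 4.12 CPM in Sox2 cKO. The groups overlapped in both genes, and in both the lowest value of all came from Ctrl library 6. The log2 fold changes were 0.26 for H2-Aa (SE 0.20, adjusted p = 0.35 by edgeR) and 0.32 for H2-Ab1 (SE 0.23, adjusted p = 0.31), so differences of the size seen were not separable from the spread between mice.

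The 3 classical chain genes did not keep a fixed proportion. The ratio of H2-Eb1 to H2-Aa, both in FPKM, was 1.02, 0.88 and 0.89 in Ctrl and 1.17, 1.52 and 1.29 in Sox2 cKO, with no overlap between groups (0.93 ± 0.0781 and 1.33 ± 0.18, SD, n = 3 each). H2-Eb1 against H2-Ab1 gave 1.28, 1.12 and 1.23 in Ctrl and 1.29, 2 and 1.69 in Sox2 cKO, where the groups were separated by a narrow gap between Ctrl library 2 and Sox2 cKO library 1. By contrast, the ratio of H2-Ab1 to H2-Aa was 0.8, 0.785 and 0.725 in Ctrl and 0.906, 0.761 and 0.766 in Sox2 cKO, and these overlapped. The beta and alpha chain genes of H2-A thus stayed within a range of 0.725 to 0.906 in all 6 libraries. These ratios share libraries and the H2-Eb1 values that were already tested, and are given without a test of their own.

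Cd74 (ENSMUSG00000024610, chromosome 18) encodes the invariant chain, which also serves as a receptor chain for the cytokine MIF. It was present at 8.57, 7.57 and 6.47 CPM in Ctrl and at 10.9, 8.94 and 10.5 CPM in Sox2 cKO. All Sox2 cKO libraries were above all Ctrl libraries, by a gap of less than the SD of either group between Sox2 cKO library 3 and Ctrl library 2. Means were 7.53 ± 1.05 and 10.1 ± 1.03 CPM (SD, n = 3 each), and the log2 fold change of 0.42 (SE 0.15) had an adjusted p = 0.06 by edgeR. With 134 to 278 counts in each library, Cd74 was the best counted of the 7 genes. The ratio of Cd74 to H2-Aa in FPKM was 1.46 to 1.85 in Ctrl and 1.68 to 2.01 in Sox2 cKO, and the groups overlapped.

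H2-DMa and H2-DMb1 encode the alpha and beta chains of H2-DM, which loads peptides in the endosome and does not present them itself. H2-DMa (ENSMUSG00000037649, chr17:34119541-34139101, plus strand) was present at 3.99, 4.70 and 3.96 CPM in Ctrl and at 6.37, 5.53 and 5.21 CPM in Sox2 cKO. H2-DMb1 (ENSMUSG00000079547, chr17:34153072-34160230, plus strand) was present at 2.02, 1.37 and 1.35 CPM in Ctrl and at 2.68, 3.17 and 1.89 CPM in Sox2 cKO. The groups did not overlap in H2-DMa, while in H2-DMb1 Sox2 cKO library 5 was below Ctrl library 2. The log2 fold changes were 0.43 for H2-DMa (SE 0.16, adjusted p = 0.073 by edgeR) and 0.71 for H2-DMb1 (SE 0.27, adjusted p = 0.079). H2-DMb1 had nearly the fold of H2-Eb1 on 28 to 93 counts per library, with an SE of 0.27 against 0.20. Of the 1355 windows of 50 bases in its longest transcript, 369 (27.2%) also occur in H2-DMb2, a neighbouring beta chain gene with 32 counts in all, so the split of reads between both genes is uncertain. The H2-DMa span overlaps 4 genes, 3 of them on the other strand and Brd2 among these, which limits its value in the same way as for H2-Eb1.

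Ciita (ENSMUSG00000022504, chr16:10480059-10528418, plus strand) encodes the coactivator and is the one regulator of the set. Its counts were 22, 64 and 67 in Ctrl and 9, 38 and 39 in Sox2 cKO. In CPM this was 0.987, 2.66 and 3.23 in Ctrl and 0.395, 1.30 and 1.47 in Sox2 cKO. The groups overlapped, since Ctrl library 2 was below Sox2 cKO libraries 3 and 5, and each group had 1 library far under the others. The log2 fold change was -1.09 (SE 0.48, adjusted p = 0.12 by edgeR). Ciita overlaps Dexi on the other strand, and part of its count can be reads of that gene. Its values also followed another order over the libraries than those of its target genes: Ciita was highest in Ctrl library 6, where all 6 other members had their lowest Ctrl value. For H2-DMa (3.96 CPM, against 3.99 in Ctrl library 2) and H2-DMb1 (1.35 CPM, against 1.37 in Ctrl library 4) that value was nearly tied.

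Summed over the 6 genes other than Ciita, class II RNA was 26.4, 25.1 and 19.4 CPM in Ctrl and 33.8, 30.8 and 33.5 CPM in Sox2 cKO. The means were 23.6 ± 3.74 and 32.7 ± 1.69 CPM (SD, n = 3 each), without overlap. The median log2 fold change of these 6 genes was 0.43, beside a median of 0.02 over all genes tested. Ctrl library 6 was the lowest, and it is also the library in which 6 of the 8 markers of border macrophages had their lowest Ctrl value.

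Gene length moved with the comparison in these libraries: short genes tended to higher values in Sox2 cKO and long genes to lower ones. The 6 genes were 1132 to 1555 bases long, against a median of 3060 bases for tested genes, and Ciita was 5254 bases long. Among the 1221 tested genes of 1132 to 1555 bases, the median log2 fold change was 0.29, 29.3% were called higher and 44.2% were higher without overlap between groups. Read against these genes, 1 call and 3 separated genes among 6 are close to the background. Larger log2 fold changes than that of H2-Eb1 were found in 9.17% of the genes of this length, larger than that of H2-DMb1 in 11.2%, and larger than that of H2-Aa in 53.6%.

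**Figure D2:**
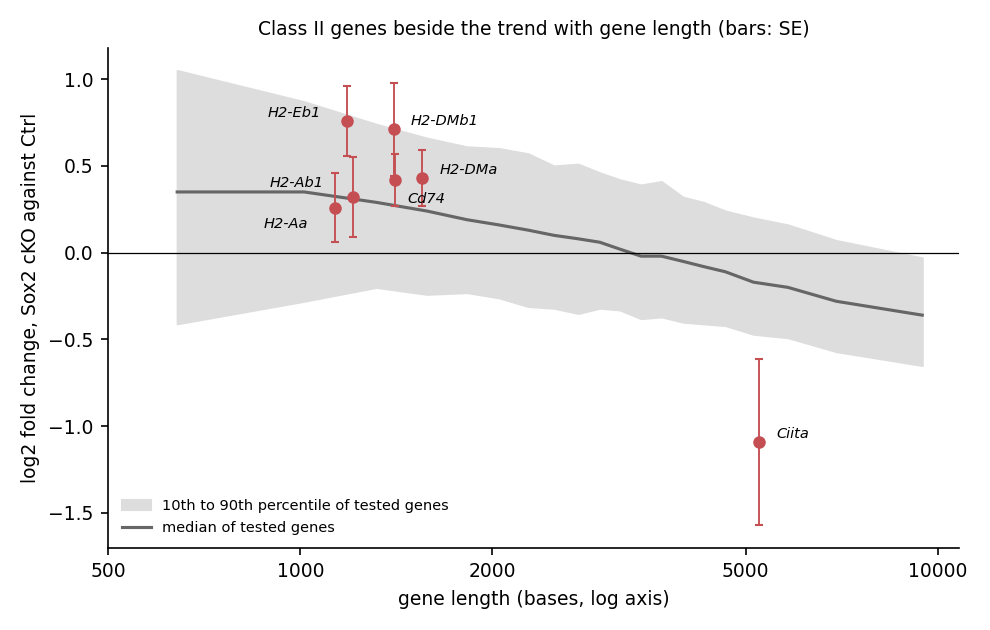
Log2 fold change (Sox2 cKO against Ctrl, bars SE) of the 7 class II genes plotted against gene length in bases on a log axis, over the median and the 10th to 90th percentile of all tested genes in 20 length bins. The median falls from 0.35 in the shortest bin to -0.36 in the longest, H2-Aa and H2-Ab1 lie on it, and H2-Eb1 and H2-DMb1 lie above it.

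When each library was corrected for its own trend with length, the log2 fold change of H2-Eb1 was 0.46 (adjusted p = 0.14 by edgeR). In that fit 0 of the 7 genes were called and 1 had an unadjusted p below 0.05, while 6.08% of all tested genes were called higher. H2-DMb1 kept a value of 0.45 (adjusted p = 0.25), Cd74 went to 0.16 (adjusted p = 0.42) and H2-DMa to 0.19 (adjusted p = 0.44). H2-Ab1 went to 0.02 (adjusted p = 0.96) and H2-Aa turned to -0.06 (adjusted p = 0.87). Ciita stayed negative at -0.93 (adjusted p = 0.20). The median of the 6 genes was 0.17 after the correction.

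**Figure D3:**
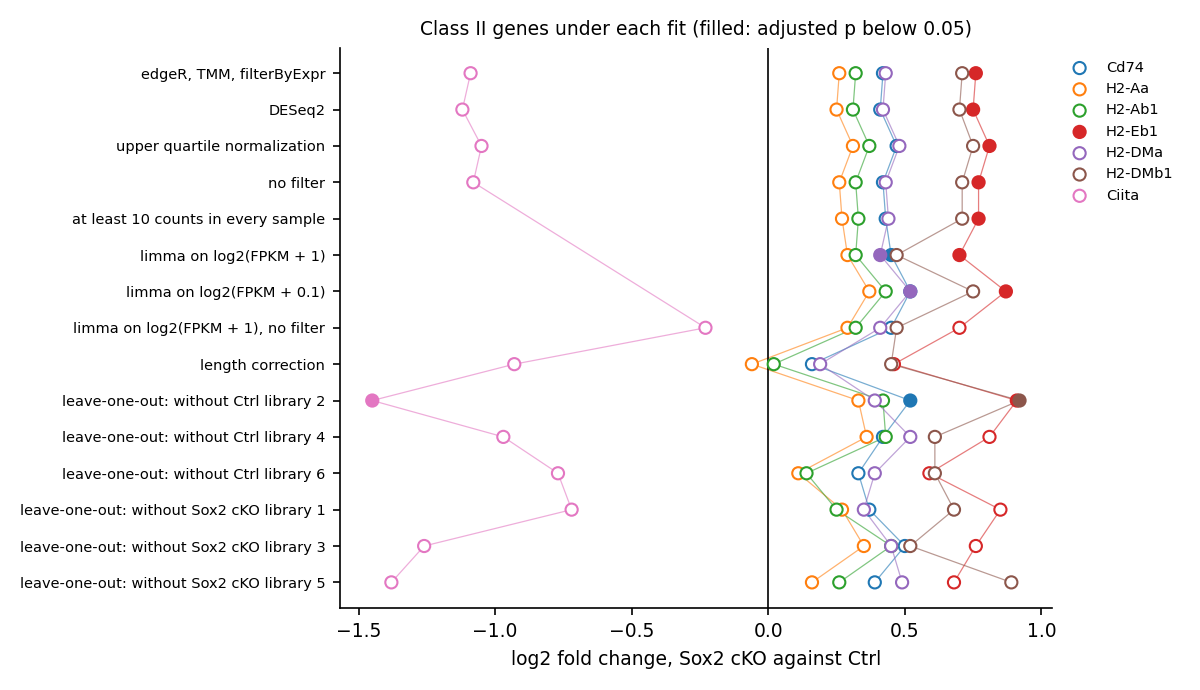
Log2 fold change of each class II gene (horizontal axis, Sox2 cKO against Ctrl) under each of the 15 fits named on the vertical axis, with a filled point where the adjusted p was below 0.05. H2-Eb1 was above 0 in every fit, between 0.46 and 0.91, H2-Aa crossed 0 with the length correction, and Ciita was below 0 in each fit that tested it.

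Across the 14 other fits, H2-Eb1 was called in 7, with adjusted p from 0.0091 to 0.14. Leaving out 1 library at a time gave log2 fold changes of 0.59 to 0.91 for H2-Eb1, with a call when Ctrl library 2 was absent and in none of the other 5 cases. The cause of that dependence was not tested. Cd74 was called in 3 of the 14 fits, H2-DMa in 2, H2-DMb1 and Ciita in 1 each (Ciita of 11 that tested it), and H2-Aa and H2-Ab1 in none.

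Border macrophages, microglia, dendritic cells and B cells are among the cells that could carry class II RNA in such a sample. Other sources, astrocytes included, were not tested. Markers of border macrophages, the macrophages of meninges and vessels, summed to 22.5, 22.4 and 11.4 CPM in Ctrl and to 33.6, 27.5 and 23.1 CPM in Sox2 cKO, without overlap. Which of these macrophages carry class II is not told by these markers. Of their 7 tested genes 2 were called higher, Pf4 at a log2 fold change of 1.58 (adjusted p = 0.033 by edgeR) and Cbr2 at 1.05 (adjusted p = 0.045), and the median was 0.67. Over all genes tested by edgeR, 12.2% were called higher. DESeq2 called 2 genes of the list and the length correction 0 (3 at an unadjusted p below 0.05). Mrc1 and Lyve1, both on this list, were present at 1.26 CPM or more in every library. They had log2 fold changes of 0.71 and 0.67 that did not pass (adjusted p = 0.15 and 0.12 by edgeR). Cd163, at 3.57 CPM or more in every library, had -0.07 (adjusted p = 0.81 by edgeR). Of the 7 tested markers 6 had positive values and 1 a negative one. The ratio of the 6 class II genes to these markers was 1.17, 1.12 and 1.7 in Ctrl and 1.01, 1.12 and 1.45 in Sox2 cKO. These values overlapped, with means of 1.33 ± 0.319 in Ctrl and 1.19 ± 0.233 in Sox2 cKO (SD, n = 3 each). The part of these cells in the class II values was not tested.

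Microglial markers showed no common direction, with 4 positive and 6 negative values. They summed to 307, 318 and 355 CPM in Ctrl and to 328, 282 and 261 CPM in Sox2 cKO, with overlap and a median log2 fold change of -0.04. By edgeR 0 of the 10 were called (3 at an unadjusted p below 0.05), DESeq2 called 2 and the length correction 1. The ratio of class II to microglial RNA was 0.086, 0.079 and 0.0545 in Ctrl and 0.103, 0.109 and 0.129 in Sox2 cKO, without overlap.

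**Figure D4:**
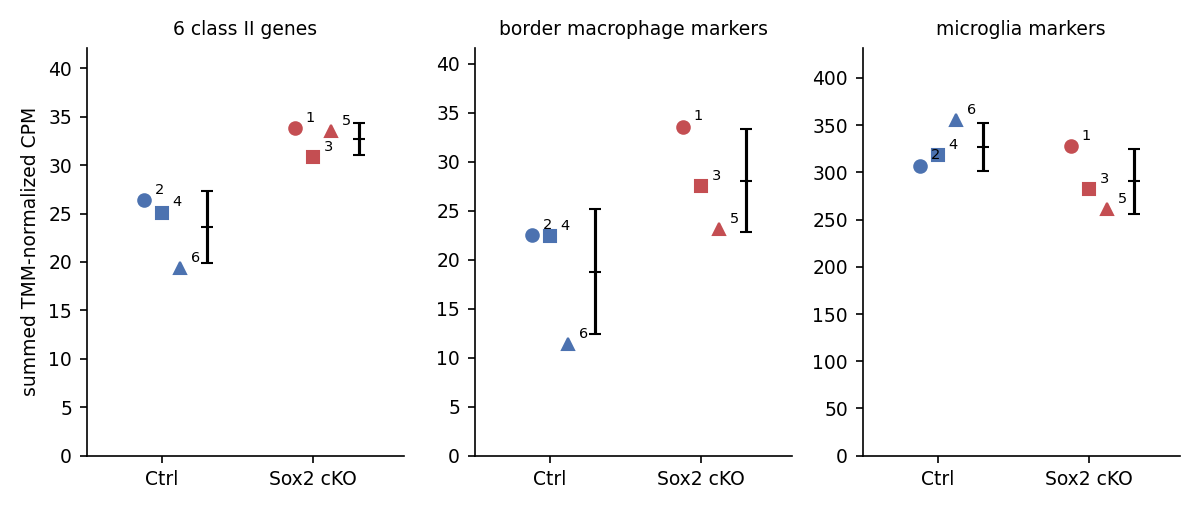
Summed CPM of the 6 class II genes other than Ciita, of 8 border macrophage markers and of 10 microglial markers, with 1 numbered point for each library and the mean and SD beside each group. Class II and border macrophage sums lie higher in all Sox2 cKO libraries than in all Ctrl libraries and are both lowest in Ctrl library 6, while microglial sums overlap.

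Markers of dendritic cells and B cells were uneven within their lists. The 10 dendritic cell markers summed to 36.5 to 38.3 CPM in Ctrl and 36.9 to 40.4 CPM in Sox2 cKO, and most of that was Flt3, at 27.7 CPM in both groups (log2 fold change 0.00), followed by Zbtb46 with 870 counts in all. Xcr1, Cd209a and Ccr7 had 4, 1 and 6 counts and Itgax 48, and Batf3 alone was called (1.34, adjusted p = 0.012 by edgeR). B cell markers summed to 33.8 to 49.1 CPM in Ctrl and 53.5 to 67.5 CPM in Sox2 cKO, without overlap. Nearly all of that sum was Ighm, at a log2 fold change of 0.53 (adjusted p = 0.025 by edgeR). Ms4a1 and Cd79b, which define B cells, had 22 and 29 counts over all libraries. Ighm is 1424 bases long, and 29.3% of tested genes of 1132 to 1555 bases were called higher. With the length correction 0 genes of the B cell list were called (0 at an unadjusted p below 0.05), and 1 of the dendritic cell list. The ratio of class II to B cell RNA was 0.537 to 0.634 in Ctrl and 0.497 to 0.623 in Sox2 cKO, and overlapped. Neutrophils are not known for class II, and their markers summed to 11.7 to 18.7 CPM in Ctrl and 22.8 to 71.4 CPM in Sox2 cKO. By edgeR 6 of 7 were called higher, against 12.2% of all genes tested. Without overlap between groups 4 were higher, against 22.6%. With the length correction 4 of these neutrophil markers were called, against 13.1% of all genes in either direction. Of the Sox2 cKO group, library 5 had the lowest neutrophil sum, the lowest H2-DMa and H2-DMb1 and the highest H2-Aa and H2-Eb1. The part of any of these cells was not tested.

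Around the members, 6 lists held 43 genes, namely other class II chains, promoter factors, endosomal processing, interferon gamma signalling, co-stimulation and the MHC class I pathway. Of these 37 could be tested, and 5 rose and 2 fell, with a median log2 fold change of 0.14. Without the class I list, 28 were tested, with 3 higher and 2 lower. The backgrounds over all genes were 12.2% higher and 12.4% lower. After the length correction 2 of the 7 calls remained, those of B2m and H2-D1, and 5 were lost, those of Nfyc, Creb1, Ctss, Ctsl and March1. Over all 6 lists the count was 12 without Ctrl library 2, where 36.9% of all genes were called, and 9 without Sox2 cKO library 5 (16.3%). It was 2 without Sox2 cKO library 3 (8.31%), 1 without Ctrl library 6 (6.54%), and 0 without Ctrl library 4 (0.159%) or Sox2 cKO library 1 (0.0485%), with 8 at an unadjusted p below 0.05 in each of these last cases.

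The other class II chain genes were at the limit of detection. H2-Ob, a beta chain of the H2-O molecule that restrains H2-DM, was the one of 5 with enough counts, at 0.493, 0.291 and 0.434 CPM in Ctrl and 1.10, 1.02 and 0.416 CPM in Sox2 cKO. In 2 of 3 Sox2 cKO libraries it was above all Ctrl libraries, and the log2 fold change of 1.05 (SE 0.45) had an adjusted p = 0.11 by edgeR. H2-Oa, its alpha chain partner, had 16 counts in all.

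Of the 7 factors that bind the X and Y boxes, Nfyc rose and Creb1 fell. Nfyc, a subunit of the Y box factor NF-Y, was present at 24.1, 20.5 and 20.8 CPM in Ctrl and 28.4, 28.7 and 26.4 CPM in Sox2 cKO, at a log2 fold change of 0.35 (SE 0.10, adjusted p = 0.028 by edgeR). The other NF-Y subunits Nfya and Nfyb had values of 0.03 and 0.09. Creb1, which binds beside the X box, was present at 65.8, 77.2 and 72.8 CPM in Ctrl and 49.9, 57.1 and 59.1 CPM in Sox2 cKO (-0.38, SE 0.09, adjusted p = 0.020 by edgeR). Neither overlapped between groups. Creb1 is 8364 bases long, and the median over tested genes of about that length was -0.36 on the log2 fold scale. After the correction for length Creb1 had -0.06 (adjusted p = 0.54) and Nfyc 0.19 (adjusted p = 0.13). The subunits of the RFX complex on the X box had log2 fold changes of 0.02 for Rfx5, 0.14 for Rfxank and 0.24 for Rfxap, and did not pass.

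In the endosomal list, 2 of 9 genes rose and 1 fell. Ctss, the cathepsin that cuts the invariant chain in macrophages and dendritic cells, was present at 57.7, 40.7 and 44.2 CPM in Ctrl and 117, 71.8 and 54.4 CPM in Sox2 cKO. The groups overlapped and Sox2 cKO library 1 stood far above the others, at a log2 fold change of 0.77 (SE 0.24, adjusted p = 0.041 by edgeR). Ctsl, the cathepsin with that task in thymic epithelium, was present at 93.3, 72 and 66.1 CPM in Ctrl and 118, 103 and 101 CPM in Sox2 cKO, at 0.48 (SE 0.12, adjusted p = 0.024), without overlap. March1, a ubiquitin ligase that removes class II from the surface, was present at 24.2, 27 and 27.9 CPM in Ctrl and 17.2, 19.6 and 22.3 CPM in Sox2 cKO, at -0.42 (SE 0.11, adjusted p = 0.026). With the length correction these 3 genes had 0.48 for Ctss (adjusted p = 0.13), 0.31 for Ctsl (adjusted p = 0.057) and -0.35 for March1 (adjusted p = 0.05), and none was called. The remaining 6, with cathepsins B, D and Z and legumain among them, did not pass in the reported fit. With the length correction 1 of these 6 was called.

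Interferon gamma is the best known inducer of Ciita. Its gene Ifng had 0 counts in the 6 libraries, a value of 0 that allows up to 3 counts in each. Of the 7 tested genes of its pathway 0 were called (2 at an unadjusted p below 0.05, 0 after adjustment with DESeq2 and 1 with the length correction), with a median log2 fold change of 0.01. Irf1, a transcription factor that the pathway induces, had 0.42 (SE 0.26, adjusted p = 0.25 by edgeR). For co-stimulation, which a T cell needs beside class II, 0 of 4 tested genes were called by edgeR or DESeq2 (0 and 1 at an unadjusted p below 0.05), with Cd86 at 0.48 (SE 0.26, adjusted p = 0.21 by edgeR).

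The genes of MHC class I, which presents peptides from the cytosol, had positive values in all 9 tested, and 2 were called. B2m, the light chain of class I, was present at 84.7, 55.7 and 60.5 CPM in Ctrl and 139, 108 and 108 CPM in Sox2 cKO, at a log2 fold change of 0.82 (SE 0.16, adjusted p = 0.013 by edgeR). H2-D1, a heavy chain gene with close relatives in the genome, was present at 78.3, 62.8 and 64.1 CPM in Ctrl and 124, 95.6 and 85 CPM in Sox2 cKO, at 0.57 (SE 0.14, adjusted p = 0.020). No Sox2 cKO library of either gene reached down to a Ctrl library. The ratio of the 6 class II genes to the class I genes was 0.106, 0.12 and 0.0885 in Ctrl and 0.0859, 0.103 and 0.117 in Sox2 cKO, and overlapped. B2m stayed called after the length correction, at 0.46 (adjusted p = 0.029), as did H2-D1 at 0.42 (adjusted p = 0.042).

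The genes whose log2 CPM followed the mean of the class II members most closely over the 6 libraries were Ass1, Sycp3, Rab3ip, Kcnu1, Pnpla2, Tfcp2l1, Cpeb2 and Klf2, with Pearson's r of 0.981 to 0.996. The mean took in Ciita, whose log2 CPM ran from -1.62 to 1.18 around its own mean, the widest span of any member. A mean without Ciita was not compared, so these genes need not be those nearest to the other members. They were the highest of 14531 genes compared, and with 6 points that share depth and a group difference such values are a description. Of these 8, Pnpla2 (0.37, adjusted p = 0.03 by edgeR) and Tfcp2l1 (1.40, adjusted p = 0.042) were called, and Klf2 had 0.46 (adjusted p = 0.062). No marker of the cell lists was among them, but markers with a mean below 1 CPM, such as Ms4a1 and Cd3e, were not compared.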

How the data were processed

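Poly(A) RNA of whole spinal cord, 3 Sox2 cKO and 3 Ctrl mice, was sequenced as single-end reads after a directional library kit. The authors aligned reads to mm10 with STAR 2.5 and deposited raw counts per gene from HTSeq 0.6.1, and the deposited FPKM values were made by the authors from these counts, gene length and library total. The annotation and the strand setting of the counting are not given in the sources used here. Columns carry mouse numbers rather than sample names, and were put in groups by the numbers of the study's mice; group means that the study lists for 1999 genes were matched in 1999 (relative tolerance 0.0001) and in 0 with groups exchanged. No column was left unused. Names came from GENCODE M21 for 34490 of 35275 identifiers. The lengths recovered from both tables were whole (tolerance 0.01 bases) for 24442 genes.

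The test on counts was that of edgeR 4.0.16 under R 4.3.3 (filterByExpr, TMM, quasi-likelihood test without covariates, Benjamini-Hochberg adjustment over 16137 genes at 0.05). The biological coefficient of variation was 0.119. CPM values are TMM-normalized. Alternatives were DESeq2 1.42.0, upper quartile normalization, no filter, at least 10 counts in every library, limma 3.58.1 on log2(FPKM + 1) and log2(FPKM + 0.1) for a mean FPKM of at least 0.5, the former also without a filter, a lowess correction for length (span 0.3) in each library, and leaving out each of 6 libraries. The fits were tested on simulated data. All 15 pairs of libraries differed by more than sampling noise. Separate mice were the replicates.

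The members and all lists were chosen with earlier results of these data known. Genes named are the members, the pathway genes that passed the test or state a range, Sox2, the markers of the tissue and cell types, and the 8 genes of at least 1 CPM most correlated with the members' mean log2 CPM (prior count 2). Examples beyond these were chosen after their values were seen. Some items are not reported here.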

Additional observations from a re-analysis of the deposited data

How the results depend on the processing

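The number of class II members called was 1 in the reported fit and 1 with DESeq2, without a filter and with at least 10 counts in every library, where Ciita was not tested. It was 2 with upper quartile normalization (Cd74 in addition), 3 with limma on log2(FPKM + 1) and 3 on log2(FPKM + 0.1) (Cd74, H2-Eb1 and H2-DMa, with Ciita not tested and the median of all genes at 0.09 and 0.11). It was 0 with limma on log2(FPKM + 1) without a filter, where 4 had an unadjusted p below 0.05 and 7 of all 24442 genes were called, and 0 with the length correction, where 1 had an unadjusted p below 0.05. Leaving out 1 library at a time gave 0 to 4 calls, with 4 without Ctrl library 2 (Cd74, H2-Eb1 and H2-DMb1 higher, Ciita lower) and 0 without each of the others, where 1 to 4 members had an unadjusted p below 0.05. In all genes tested the calls went from 3970 to 26 when Ctrl library 4 was left out, to 8 when it was Sox2 cKO library 1 and to 6119 when it was Ctrl library 2. The count of 7 pathway genes became 0 with limma without a filter (14 unadjusted), 4 with the length correction and 0 to 12 with a library left out. H2-Aa was reversed with the length correction, at -0.06. Beyond that, no member changed direction in any of the 14 alternatives. The cause of these changes was not tested, apart from the length trend that the correction removes by construction. Low counts limit H2-DMb1 and Ciita, with 28 and 9 counts in their lowest libraries. No paired analysis was possible because the columns carry no replicate numbers.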

Other observations

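Markers of T cells, the cells that read class II, were near 0 in these libraries. Cd3e, Cd3d, Cd3g and Cd4 had 19, 5, 7 and 30 counts over all 6 libraries, and the 8 T cell markers summed to 1.26, 1.75 and 2.66 CPM in Ctrl and to 1.8, 1.57 and 2.23 CPM in Sox2 cKO, with overlap. Only Trac and Lck could be tested, and 0 were called by edgeR or DESeq2 (0 at an unadjusted p below 0.05 with either). Among monocyte markers, 3 of 6 could be tested. Chil3 was called higher (log2 fold change 1.54, adjusted p = 0.033 by edgeR), though its groups overlapped. Vcan, which oligodendrocyte precursors also express, was called lower (-0.43, adjusted p = 0.034), and Ccr2 had 0.51 (adjusted p = 0.56). Vcan is 12427 bases long, and the median log2 fold change in the bin of the longest genes was -0.36. With the length correction 0 of the monocyte markers were called (1 at an unadjusted p below 0.05). Red blood cell genes summed to 57.1, 75 and 166 CPM in Ctrl and to 82.4, 76.8 and 98.4 CPM in Sox2 cKO, with 0 of 5 called by edgeR or DESeq2 (0 at an unadjusted p below 0.05), and the highest sum was in Ctrl library 6, where the class II sum was lowest.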
